A study of Mus musculus with 12 samples.

Results

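The SOCS family was examined in RNA-seq gene counts of mouse lymph nodes. Its members are the 8 genes Cish, Socs1, Socs2, Socs3, Socs4, Socs5, Socs6 and Socs7, taken by gene symbol out of 55487 genes in the deposited table. All 8 held enough counts to be tested, among 17301 tested genes. The family was chosen by name, but it was picked with the levels of Socs3 in these libraries already known. Every value of Socs3 is therefore given as a description, with no test, and supports nothing further.

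The nodes came from 4 groups of 3 libraries, 12 in all, which the labels call independent biological repetitions. NT NC mice carried no tumour and had intact nerves. T NC mice had been inoculated in the tongue with B16F10 cells, a mouse melanoma line, with the nerves left intact. NT NDE mice carried no tumour, and the pain-sensing (nociceptive) nerves that supply the tumour-draining lymph node had been inhibited. T NDE mice had both the tongue tumour and the inhibited nerves. The series title calls the draining nodes premetastatic and the treatment denervation. Strain, sex, age, the way the nerves were inhibited, the time since inoculation and the number of mice per library were not stated in the labels. Where a library holds more than 1 mouse, or repetitions share a source, p-values measure only the spread between these libraries.

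SOCS proteins are feedback brakes of cytokine signalling. A cytokine receptor activates Janus kinases (JAKs), these phosphorylate STAT transcription factors, and STATs switch on SOCS genes, whose products bind the receptor or kinase through an SH2 domain. A second domain, the SOCS box, recruits elongins and a cullin ubiquitin ligase. Cish, Socs1, Socs2 and Socs3 are the classical members, which cytokines induce quickly. Socs1 and Socs3 also block JAK activity directly, and the other four members are better known from receptor tyrosine kinase signalling. In lymph nodes Socs1 is known for restraining interferon and common gamma chain cytokines in T cells, and Socs3 for restraining receptors of the interleukin 6 and granulocyte colony-stimulating factor type.

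Sequences next to the transcript starts of the classical members are shown because STATs are known to induce these genes from there. RefSeq windows of 300 bases (250 before and 50 after a transcript start, GRCm38.p6, the same assembly as mm10) were found for 4 members: Cish, Socs1, Socs3 and Socs4. Capitals mark matches on either strand to TTCNNNGAA, the core of the gamma-activated sequence that STAT dimers bind. The windows of Socs3, Cish and Socs1 are printed because these transcripts varied most between libraries, and that of Socs4 held no match. They lie at chr11:117969317-117969616 on the minus strand (Socs3), chr9:107296409-107296708 on the plus strand (Cish) and chr16:10785487-10785786 on the minus strand (Socs1).
Socs3: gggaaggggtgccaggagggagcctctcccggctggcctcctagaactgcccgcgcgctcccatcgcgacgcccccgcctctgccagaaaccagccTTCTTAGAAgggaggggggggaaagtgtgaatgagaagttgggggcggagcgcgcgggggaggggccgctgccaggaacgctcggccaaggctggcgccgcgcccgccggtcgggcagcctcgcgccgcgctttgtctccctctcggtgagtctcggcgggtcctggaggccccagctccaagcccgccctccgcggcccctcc
Cish: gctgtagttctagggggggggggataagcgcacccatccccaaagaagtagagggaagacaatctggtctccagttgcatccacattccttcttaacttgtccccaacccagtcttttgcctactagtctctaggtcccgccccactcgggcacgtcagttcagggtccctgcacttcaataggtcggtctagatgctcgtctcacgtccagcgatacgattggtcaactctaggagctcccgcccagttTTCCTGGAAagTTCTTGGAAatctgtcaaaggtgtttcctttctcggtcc
Socs1: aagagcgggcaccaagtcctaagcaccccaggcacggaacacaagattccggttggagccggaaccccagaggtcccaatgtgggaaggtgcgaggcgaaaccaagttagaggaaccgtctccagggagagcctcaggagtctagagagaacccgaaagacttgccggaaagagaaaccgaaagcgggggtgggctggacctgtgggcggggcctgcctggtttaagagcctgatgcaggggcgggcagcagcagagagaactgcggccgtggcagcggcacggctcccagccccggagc

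The Socs3 window held 1 match, TTCTTAGAA, whose first base lies at position -154 from the transcript start. Cish held 2 matches close together, TTCCTGGAA at position 1 and TTCTTGGAA at position 12, counting the first transcribed base as 1. The Cish match at position 1 also fits the stricter form TTCCNGGAA. The Socs1 window held 0 matches to TTCNNNGAA, but 2 matches on either strand to GAAA and GAAA with any 2 bases between, the core of the element bound by interferon-activated complexes. Of 32851 RefSeq windows of this length, 8.30% held at least 1 TTCNNNGAA, 0.457% held 2 or more, and 3.44% held at least 1 such GAAA pair. A match describes letters only, and no match says nothing of sites outside the window.

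Library totals ran from 16862953 to 24467873 counts, and the member with the fewest counts, Cish, was counted 308 to 692 times per library. Levels are given as CPM, the counts of a gene relative to the library total after scaling with TMM factors. Lymphocyte markers were abundant in all 12 libraries: the 11 T cell markers summed to 1559 to 2042 CPM and the 8 B cell markers to 3288 to 4597 CPM. Of 8 melanocyte markers, 5 stayed under 1 CPM in every library. 3 libraries stood apart by salivary gland transcripts. The 13 salivary markers in the table summed to 29164 CPM in NT NC replicate 3, 41708 CPM in T NDE replicate 3 and 1503 CPM in NT NC replicate 2, against 42.5 to 128 CPM in the other 9. Ltf, 1 of the 13, is also in the neutrophil list. It held 24.5 of the 42.5 CPM in NT NC replicate 1 and 69.0 of the 128 CPM in T NC replicate 3. Some differences of members and some list counts and medians, not all that changed, are also given without the 3 salivary libraries. Leaving them out keeps only replicate 1 of NT NC, whose spread is then assumed to be that of the other groups.

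Socs3 led the family per exon length. Over the 12 libraries it averaged 36.3 CPM per kb of exon, ahead of Socs4 at 14.5, Socs1 at 8.15, Socs5 at 7.35 and Socs7 at 7.27 CPM per kb. Socs2, Cish and Socs6 averaged 4.13, 3.36 and 2.47 CPM per kb. On this scale Socs3 made up between 30.8% (NT NC replicate 1) and 49.8% (NT NDE replicate 1) of the family sum. Its share averaged 35.6% in NT NC, 46.4% in T NC, 48.3% in NT NDE and 41.5% in T NDE. The share of Socs4 averaged 20.7% in NT NC and 15.6%, 15.7% and 18.2% in the other groups in the same order. Exon lengths join all annotated transcripts, so members with unused long transcripts are understated.

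**Figure D1:**
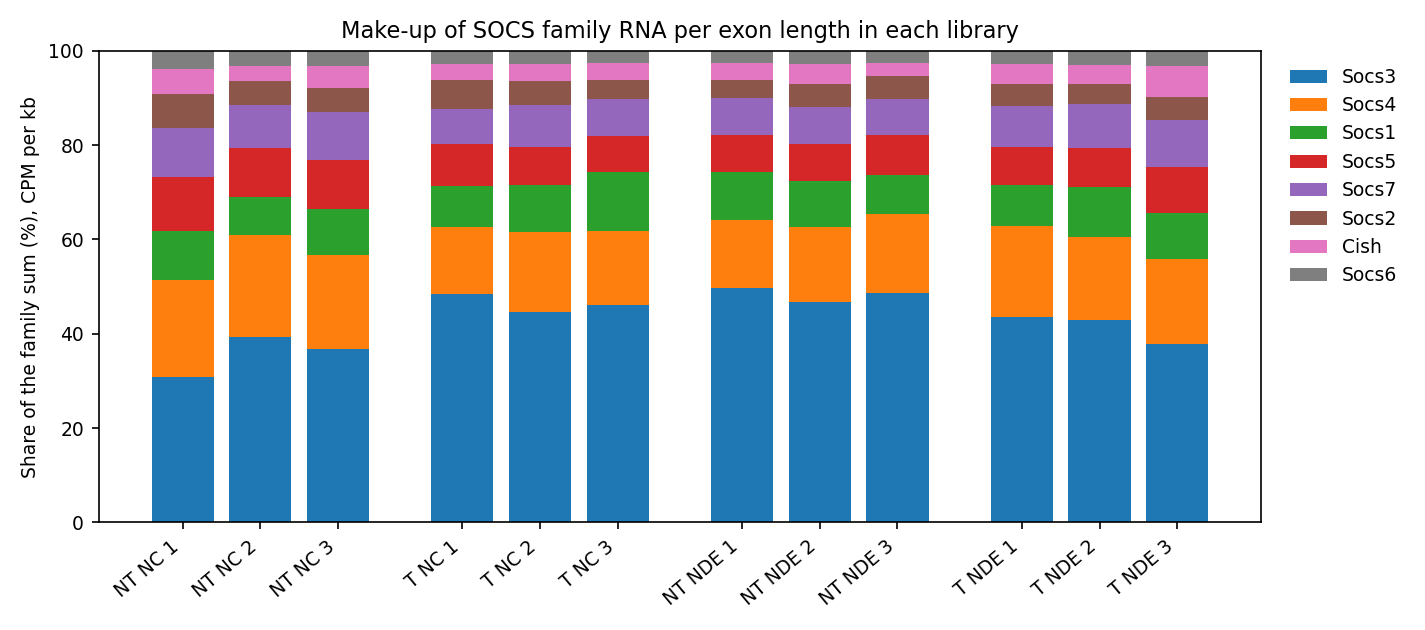
Stacked bars give each member's share (%) of the summed SOCS family level, in CPM per kb of exon, in the 12 libraries. Socs3 is the lowest segment in every bar and runs from 30.8% in NT NC replicate 1 to 49.8% in NT NDE replicate 1.

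The members split into variable and steady genes. The coefficient of variation over the 12 libraries was 21.5% for Socs3, 21.5% for Cish, 18.1% for Socs1 and 12.6% for Socs2, all classical members. It was 7.54% for Socs4, 6.68% for Socs7, 5.21% for Socs5 and 4.43% for Socs6. Among 10362 genes with a mean of at least 10 CPM, 96.6% varied less than Socs3, 96.5% less than Cish and 94.4% less than Socs1, while 10.6% varied less than Socs6 and 20.1% less than Socs5. Without the 3 salivary libraries the coefficient for Cish was 11.8%, with 81.9% of 10346 genes varying less, since the highest Cish level was in T NDE replicate 3. In those 9 libraries it was 19.2% for Socs3, 17.0% for Socs1, 13.7% for Socs2 and 3.95% to 7.85% for the other four. Counting noise is larger for low genes such as Cish and Socs1, and these shares are not corrected for it.

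**Figure D2:**
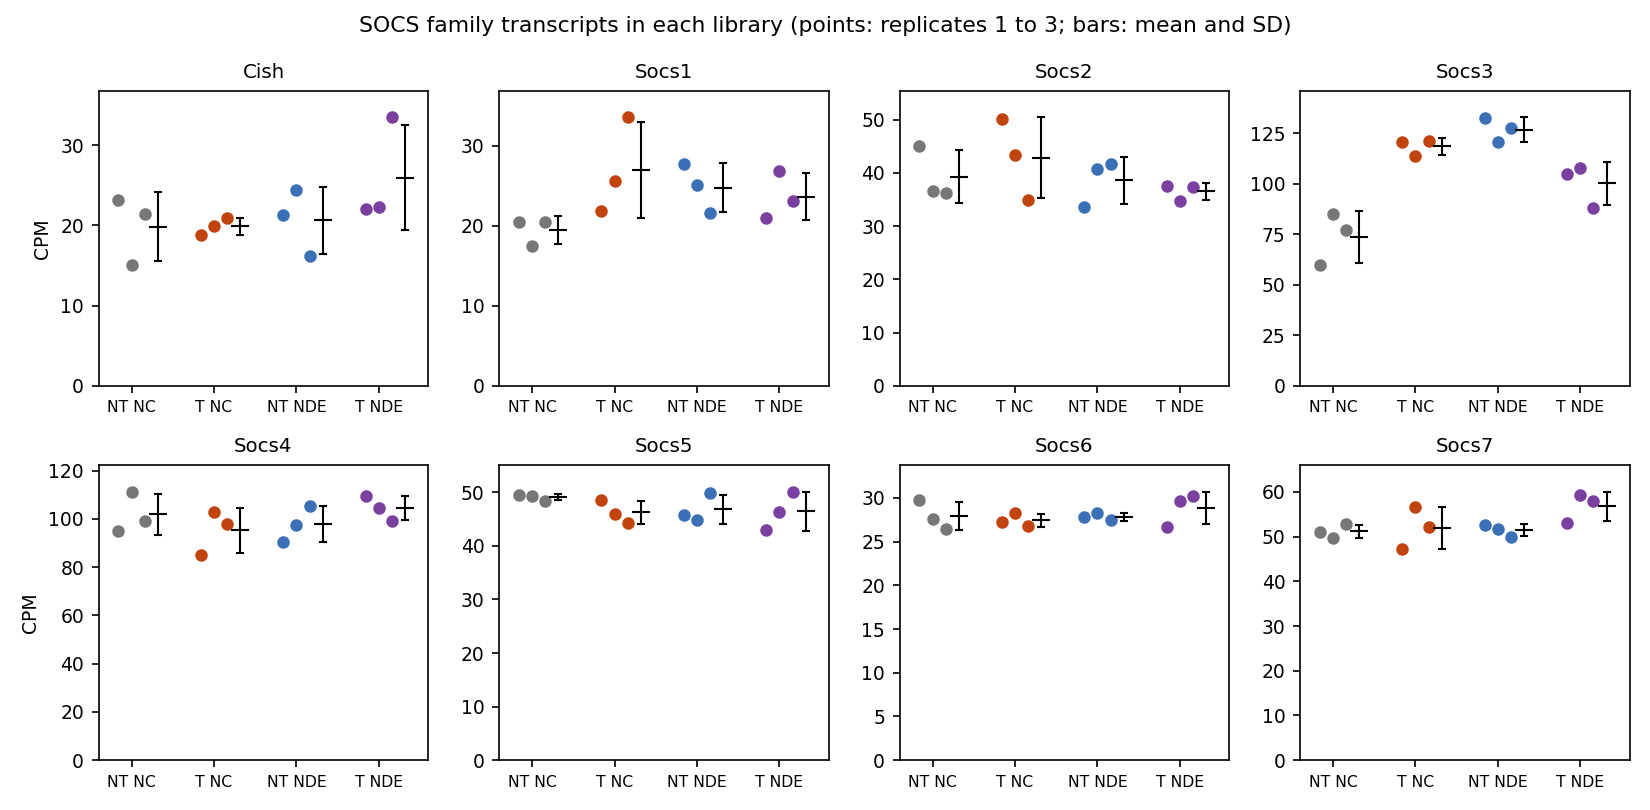
Each panel plots 1 member's level (CPM, linear axis from 0) in the 12 libraries by group, points being replicates 1 to 3 from left to right and bars the mean and SD. Socs3 is lowest in NT NC (59.8 to 84.9 CPM) and does not overlap there with any other group, while Socs5 and Socs6 stay nearly level.

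Socs3 limits signals from receptors that share gp130 and from the granulocyte colony-stimulating factor receptor. It is encoded on mm10 chromosome 11 from 117966079 to 117970047, minus strand, with no other annotated gene overlapping it. Its level was 59.8, 84.9 and 77.0 CPM in NT NC replicates 1, 2 and 3. In T NC it was 121, 114 and 121 CPM, in NT NDE 133, 121 and 127 CPM, and in T NDE 105, 108 and 88.1 CPM, in the same order of replicates. Every NT NC library lay below every library of the other 3 groups, and every T NDE library lay between those of NT NC and those of T NC and NT NDE. The ordered group means were 73.9 ± 12.8 CPM (NT NC), 100 ± 10.6 CPM (T NDE), 119 ± 4.15 CPM (T NC) and 127 ± 6.06 CPM (NT NDE; SD, n = 3 each). Only the neighbours T NC and NT NDE overlapped in range.

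Either the tumour alone or nerve inhibition alone went with more Socs3, and both together with less than either. In T NC the level was 1.60-fold that of NT NC (log2 fold change 0.68, SE 0.11), and in NT NDE it was 1.71-fold that of NT NC (0.78, SE 0.11). These comparisons share the NT NC libraries. Without the 3 salivary libraries the log2 fold changes were 1.00 (SE 0.09) and 1.09 (SE 0.09), against the single NT NC library with the lowest Socs3. Without NT NC replicate 1 they were 0.55 and 0.65. The interaction, the effect of nerve inhibition with a tumour minus that without one, was -1.02 (SE 0.15) on the log2 scale, -1.24 without the salivary libraries and between -1.13 and -0.89 when any 1 library was left out. These values led to the choice of the family and carry no test.

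The contrasts with T NDE enter the same interaction and are likewise given with no test. With a tumour present, T NDE was below T NC, with a log2 fold change of -0.24 (SE 0.11), and every T NDE library lay below every T NC library. With the nerves inhibited, T NDE was below NT NDE, with a log2 fold change of -0.34 (SE 0.11), again with no overlap. Without the 3 salivary libraries, these values were -0.16 and -0.24. T NDE replicate 3, a salivary library, had the lowest Socs3 of its group.

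**Figure D3:**
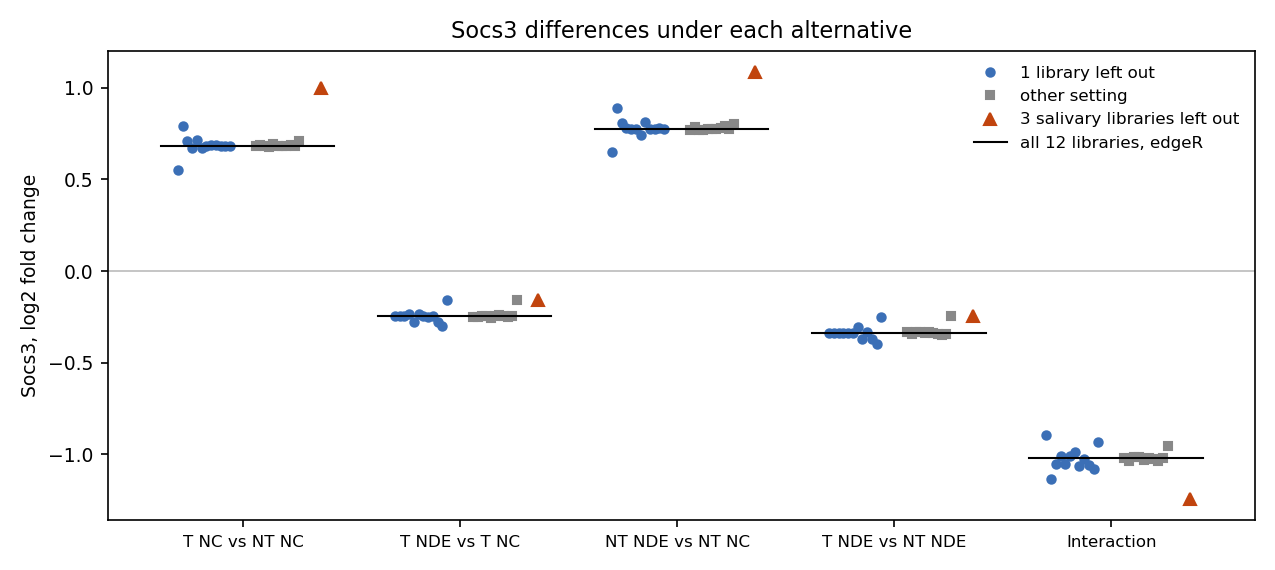
The log2 fold change of Socs3 (vertical axis) is plotted for 4 contrasts and the interaction. Black lines are the fit to all 12 libraries, circles fits without 1 library, squares other settings and triangles the fit without the 3 salivary libraries. Every fit shown stays on its side of 0, and the triangles lie farthest from the line in both contrasts with NT NC, at 1.00 and 1.09.

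Other measures were set beside Socs3, and some followed it in part across the groups. The 15 neutrophil markers, all detected, summed to 165 to 304 CPM in NT NC, 385 to 647 CPM in T NC, 340 to 407 CPM in NT NDE and 265 to 342 CPM in T NDE. Their median log2 fold change was 1.34 in T NC against NT NC and 0.80 in NT NDE against NT NC. Without the 3 salivary libraries, against NT NC replicate 1 alone, these medians were 0.79 and 0.30. Within NT NC the neutrophil sum was highest in replicate 1, at 304 CPM, where Socs3 was lowest. In bulk nodes, fewer cells of a type and less RNA per cell cannot be told apart. The 14 immediate early genes, which handling of tissue can raise, summed to 861 to 889 CPM in NT NC, 946 to 1021 CPM in T NC, 919 to 968 CPM in NT NDE and 872 to 986 CPM in T NDE. In both lists the T NDE range overlapped that of NT NC, which it did not for Socs3. The 13 glucocorticoid-responsive genes, which handling or stress can move, did not follow Socs3. They summed to 645 to 700 CPM in NT NC, 550 to 757 CPM in T NC, 591 to 698 CPM in NT NDE and 605 to 998 CPM in T NDE. Their median interaction was 0.28, and 0.01 without the 3 salivary libraries. The part of any of these lists in the Socs3 differences was not tested. Macrophage and monocyte markers, at 2670 to 3206 CPM in NT NC, 2355 to 3141 CPM in T NC 2899 to 3249 CPM in NT NDE and 2310 to 2855 CPM in T NDE, overlapped between the first 3 groups, but T NDE lay wholly below NT NDE. In that contrast 9 of 10 markers were lower, with a median log2 fold change of -0.27, and Socs3 was lower too. Lyz2, 1 of the 10, alone held 1435 to 1517 CPM of the sum in T NDE and 1615 to 1894 CPM in NT NDE. None of the 10 passed with all 12 libraries (edgeR), and the median was -0.54 without the 3 salivary ones. Marco was 290, 287 and 469 CPM in T NDE replicates 1 to 3, against 417 to 453 CPM in NT NDE. Mertk was 22.1, 25.4 and 44.0 CPM, against 35.1 to 38.3 CPM. In the salivary library T NDE replicate 3 both thus lay above every NT NDE library. Siglec1 was 158, 189 and 258 CPM, against 284 to 306 CPM. The part of this list was not tested either.

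The genes most like Socs3 over the 12 libraries were Tomm5 (mitochondrial import), Ptpn1, Stat3, Erp29 (an endoplasmic reticulum chaperone) and Leo1 (transcription elongation), out of 9861 genes compared. Pearson's r of log2 CPM was 0.92, 0.91, 0.90, 0.90 and 0.90. As a description, r of the deviations from the group means was 0.77, 0.43, 0.73, 0.55 and 0.78. The points share library depth and RNA composition, and group differences enter the first measure. Stat3 encodes the factor that gp130 cytokines activate to induce Socs3. It averaged 273 ± 7.61 CPM in NT NC, 299 ± 8.09 CPM in T NC, 313 ± 10.4 CPM in NT NDE and 297 ± 17.0 CPM in T NDE. Ptpn1 encodes a phosphatase that also shuts down JAK signalling. It averaged 224 ± 4.68, 258 ± 10.2, 271 ± 11.9 and 249 ± 5.73 CPM in the same order (SD, n = 3). Both were lowest in NT NC, as Socs3 was, but their ranges were narrower. They were picked here for likeness to Socs3 over these same libraries, so nothing is read from the shared order.

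Socs1, which restrains interferon and common gamma chain receptors, was also lowest in NT NC. It is encoded on mm10 chromosome 16 from 10782240 to 10785536, minus strand. Its level was 20.4, 17.5 and 20.5 CPM in NT NC, 21.8, 25.6 and 33.5 CPM in T NC. With the nerves inhibited it was 27.6, 25.1 and 21.5 CPM in NT NDE and 21.0, 26.8 and 23.1 CPM in T NDE. No NT NC library reached the lowest library of any other group, and the other 3 groups overlapped one another. T NC exceeded NT NC by 0.47 on the log2 scale (SE 0.15, edgeR adjusted p = 0.494) and NT NDE exceeded NT NC by 0.35 (SE 0.15, edgeR adjusted p = 0.446). Neither passed. Without the 3 salivary libraries the values were 0.41 and 0.28. T NC replicate 3, at 33.5 CPM, set much of the first difference, which was 0.30 without it. The interaction for Socs1 was -0.53 (SE 0.21, edgeR adjusted p = 0.670). In the deviations from the group means, Socs1 and Socs3 had r = -0.06 over the 12 libraries, against 0.58 with the groups left in.

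Cish, a STAT5 target that damps interleukin 2 and T cell receptor signals, was highest in T NDE. Its gene lies on mm10 chromosome 9 from 107296026 to 107302784, plus strand. It overlaps Gm17041, annotated as antisense, and a pseudogene, Gm17040, which reached at most 0.277 and 0.219 CPM. The level of Cish was 23.2, 15.0 and 21.4 CPM in NT NC, 18.8, 19.9 and 20.9 CPM in T NC. With the nerves inhibited it was 21.3, 24.5 and 16.2 CPM in NT NDE and 22.0, 22.3 and 33.5 CPM in T NDE. The T NDE libraries all lay above those of T NC but within the spread of the tumour-free groups apart from replicate 3. T NDE exceeded T NC by 0.39 on the log2 scale (SE 0.20, edgeR adjusted p = 0.871), which did not pass. The salivary library T NDE replicate 3 had the highest Cish of all 12. Without that library the difference was 0.16, and without all 3 salivary libraries it was also 0.16 (edgeR adjusted p = 0.903).

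Other STAT5-linked genes were measured beside Cish. Of 13 tested STAT5 targets (Cish not among them; Pim1 and Myc are also in the STAT3 list) 0 passed in any contrast, and in T NDE against T NC 3 were higher and 10 lower (median log2 fold change -0.03). Pim1, a survival kinase, averaged 80.4 ± 3.06 CPM in NT NC and 95.9 ± 7.33 CPM in NT NDE (edgeR adjusted p = 0.226). Ccnd3, a cyclin of lymphocyte division, averaged 149 ± 9.91 CPM and 182 ± 3.12 CPM (SD, n = 3; edgeR adjusted p = 0.144). Medians over all 17301 genes lay between -0.01 and 0.01 in each contrast. Of 21 common gamma chain and STAT5-activating cytokines and receptors tested with all 12 libraries, 0 passed in that fit. Among them Il21, the interleukin 21 gene, exceeded NT NC by 1.44 in T NC and 1.38 in NT NDE on the log2 scale (edgeR adjusted p = 0.465 and 0.253). NT NC replicate 1 held only 0.619 CPM of Il21, against 2.50 and 2.27 CPM in replicates 2 and 3. That library alone stands for NT NC when the 3 salivary libraries are left out. The smallest p of the list in T NDE against T NC belonged to Il9r, the interleukin 9 receptor, at 72.2 ± 2.47 CPM against 46.5 ± 3.26 CPM (edgeR adjusted p = 0.149).

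Socs2, best known as the brake on the growth hormone receptor, had overlapping ranges in every contrast with all 12 libraries. It lies on mm10 chromosome 10 from 95385362 to 95417180, minus strand. Its level was 45.0, 36.6 and 36.2 CPM in NT NC, 50.2, 43.4 and 35.0 CPM in T NC. With the nerves inhibited it was 33.6, 40.7 and 41.6 CPM in NT NDE and 37.5, 34.7 and 37.4 CPM in T NDE. The order of the means was T NDE (36.5), NT NDE (38.6), NT NC (39.3) and T NC (42.9 CPM). The difference with the smallest p was T NDE against T NC, at -0.23 (SE 0.13, edgeR adjusted p = 0.872).

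The remaining members were steadier. Socs4 and Socs5, which act on the epidermal growth factor receptor, ranged from 85.0 to 111 CPM and from 42.9 to 50.1 CPM over the 12 libraries. Socs4 lies on mm10 chromosome 14 from 47276931 to 47296102 and Socs5 on chromosome 17 from 87107679 to 87137839, both on the plus strand. Socs6, a partner of the KIT receptor, ranged from 26.5 to 30.2 CPM, and Socs7, an insulin signalling regulator, from 47.2 to 59.3 CPM. Socs7 lies on mm10 chromosome 11 from 97362551 to 97398542, plus strand.

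Of these, Socs7 showed groups that did not overlap in 1 contrast. It was 53.1, 59.3 and 58.0 CPM in T NDE and 52.6, 51.7 and 49.9 CPM in NT NDE, with 51.0, 49.7 and 52.7 CPM in NT NC and 47.2, 56.5 and 52.2 CPM in T NC. T NDE exceeded NT NDE by 0.14 on the log2 scale (SE 0.07, edgeR adjusted p = 1.00; also 0.14 without the 3 salivary libraries), and the lowest T NDE library lay just above the highest NT NDE library. For Socs4, Socs5 and Socs6, group means differed by at most 0.13 on the log2 scale in the 4 contrasts between groups, with SEs of 0.07 to 0.08. Their smallest edgeR adjusted p was 0.769.

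**Figure D4:**
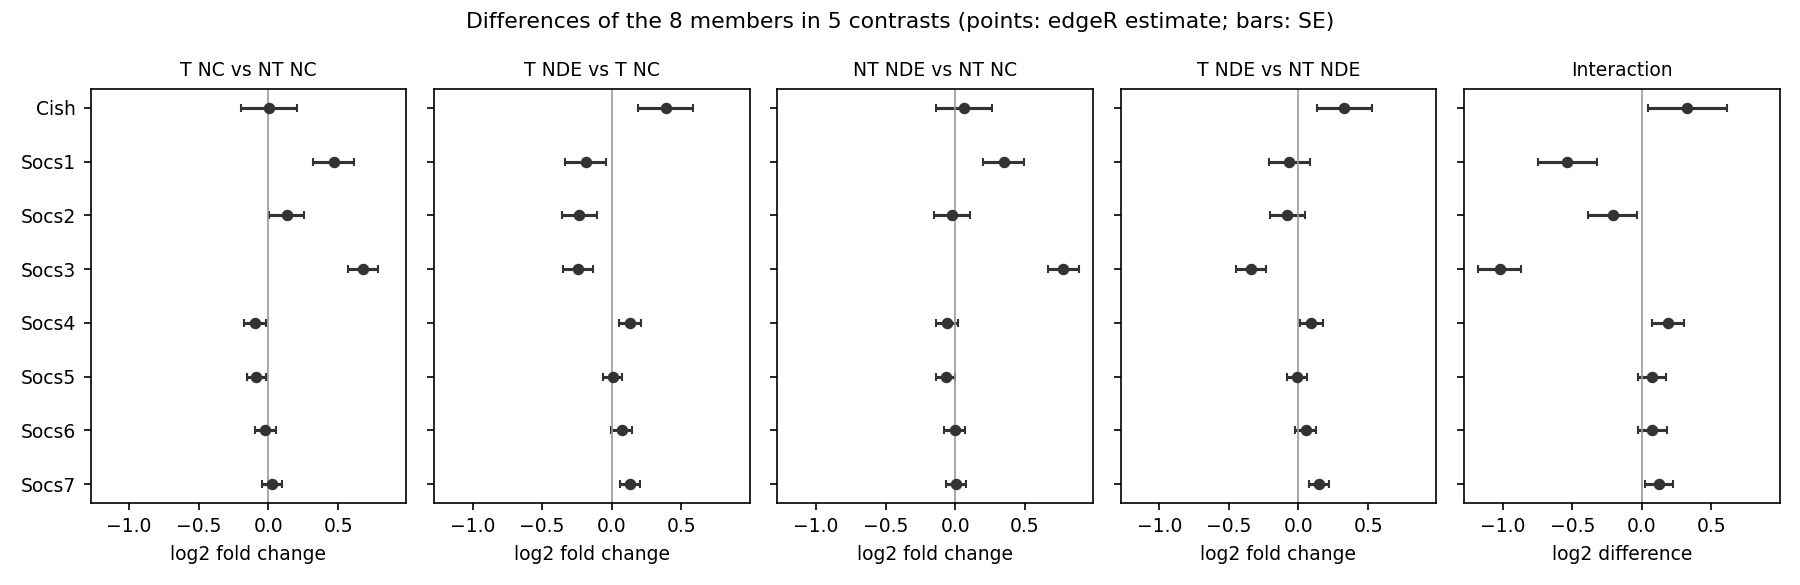
Points give the edgeR log2 fold change and bars its SE for the 8 members in 4 contrasts and the interaction, on a shared axis. Socs3 lies farthest from 0 in both contrasts with NT NC (0.68 and 0.78) and in the interaction (-1.02), and Socs4 to Socs7 lie near 0.

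Counted over the family, few differences stood out. At an edgeR adjusted p under 0.05, 0 of 7 members other than Socs3 passed in any contrast or in the interaction. Over all 17301 genes the share that passed was 0.00578% (1 gene, not Socs3) in T NDE against NT NDE. It was 0% in the other 3 contrasts and the interaction. Socs3 thus passed nowhere in this fit, which is given as a description with nothing read from it. At an unadjusted p under 0.05, Socs1 alone of the 7 passed in T NC against NT NC (7.80% of all genes), in NT NDE against NT NC (10.4%) and in the interaction (7.11%). None of the 7 did in T NDE against T NC (5.83% of all genes) or in T NDE against NT NDE (3.70%). Groups did not overlap for 2 of 8 members in T NC against NT NC (Socs1 and Socs3, both higher) where 15.0% of all genes did not overlap. The count was 2 in NT NDE against NT NC (Socs1 and Socs3, both higher; background 18.9%). It was 2 in T NDE against T NC (Cish higher and Socs3 lower; background 9.14%) and 2 in T NDE against NT NDE (Socs7 higher and Socs3 lower; background 8.43%). With Socs3 set aside, 1 of 7 members remained in each, which is near the background. With the 3 salivary libraries left out, the count was 3 in T NDE against T NC (Cish, Socs3 and Socs4; 20.8% of all genes) and 2 in T NDE against NT NDE (Socs3 and Socs7; 22.8%). Against the single NT NC library left it was 5 for T NC (53.3% of all genes) and 4 for NT NDE (57.0%). Nerve-inhibition groups that did not overlap and went opposite ways with and without a tumour were found for 0.647% of all genes (112), and among the members for Socs3. Its pattern led to the choice of the family, so nothing is read from that count.

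The family did not move as a block. In T NC against NT NC 5 members were higher and 3 lower, with a median log2 fold change of 0.01 (all genes -0.01). In NT NDE against NT NC 4 were higher and 4 lower (median 0.00, all genes 0.00). For T NDE against T NC the median was 0.04 and for T NDE against NT NDE 0.02.

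Upstream of the SOCS genes, no listed ligand, receptor or kinase passed the test with all 12 libraries (edgeR). Of 14 tested ligands and receptors of the gp130 and granulocyte colony-stimulating factor type, 0 passed in any contrast. In NT NDE against NT NC 11 were higher and 3 lower (median 0.10). Over the 16 genes tested without the 3 salivary libraries, 10 were higher and 6 lower (median 0.13). Osmr, the oncostatin M receptor, averaged 49.4 ± 1.11 CPM in NT NC but 60.9 ± 8.01 CPM in NT NDE (log2 fold change 0.30, and 0.33 without the salivary libraries; edgeR adjusted p = 0.327). Of 11 JAK and STAT genes 0 passed. Jak3, the kinase of the common gamma chain, averaged 195 ± 9.93 CPM in NT NC and 260 ± 15.2 CPM in NT NDE (log2 fold change 0.42, and 0.50 without the salivary libraries; edgeR adjusted p = 0.175). In T NDE against T NC 10 of the 11 were lower (median -0.09), and without the salivary libraries 7 were (median -0.06). Of 9 tested interferon and interleukin 10 and 12 ligands and receptors 0 passed, and Il10 averaged 1.56 ± 0.14 CPM in T NC but 0.80 ± 0.06 CPM in T NDE (edgeR adjusted p = 0.728). Il10, also in the STAT3 list, was low throughout, at no more than 2.09 CPM in any library.

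Partners and other brakes of the pathway were also measured. All 8 listed partners of the SOCS box were tested and 0 passed. Elob, the elongin B subunit that binds the box, averaged 51.3 ± 2.59 CPM in NT NC, 63.1 ± 3.02 CPM in T NC, 60.6 ± 3.69 CPM in NT NDE and 59.6 ± 2.43 CPM in T NDE (T NC against NT NC log2 fold change 0.30, and 0.27 without the salivary libraries; edgeR adjusted p = 0.386). Nedd8, whose product activates cullins, averaged 55.0 ± 1.65, 64.4 ± 3.63, 64.1 ± 4.61 and 60.2 ± 1.73 CPM in the same order (SD, n = 3). Of 13 other brakes 0 passed. Ptpn1 had the smallest p of that list in both contrasts with NT NC, with edgeR adjusted p of 0.465 for T NC and 0.129 for NT NDE. Usp18, which blocks the interferon receptor, averaged 53.0 ± 9.51 CPM in NT NC and 29.6 ± 1.68 CPM in NT NDE (log2 fold change -0.84, and -0.58 without the salivary libraries; edgeR adjusted p = 0.336).

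Downstream, STAT3 targets had the highest median of the 9 pathway lists in both contrasts with NT NC. Of 22 tested targets (Socs3 not among them) 0 passed. In NT NDE against NT NC 20 were higher and 2 lower (median 0.26), and in T NC against NT NC 17 were higher and 5 lower (median 0.17). In T NDE against T NC 11 were higher and 11 lower (median -0.01), and the interaction had a median of -0.28. Leaving out the 3 salivary libraries, these medians were 0.28, 0.19, -0.03 and -0.35. In T NDE against T NC 10 were then higher and 12 lower. Bcl3, an NF-kB cofactor, averaged 64.2 ± 3.01 CPM in NT NC, 86.0 ± 11.5 CPM in T NC, 98.3 ± 1.41 CPM in NT NDE and 93.7 ± 15.5 CPM in T NDE (NT NDE against NT NC log2 fold change 0.61, and 0.70 without the salivary libraries; edgeR adjusted p = 0.101). Hp, the acute-phase protein haptoglobin, averaged 6.96 ± 1.39, 18.9 ± 4.03, 14.4 ± 2.18 and 12.5 ± 4.63 CPM in the same order (SD, n = 3; NT NDE against NT NC log2 fold change 1.05, and 0.79 without the salivary libraries). Lcn2, Hp, Saa3 and Lrg1 are also expressed by neutrophils, and Lcn2 is in both lists, so this list and the neutrophil list are not separate measures.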

How the data were processed

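The authors deposited 1 table of whole-number gene counts for 12 lymph node libraries. HISAT2 2.0 and the build mm10 are named per the submitters' processing notes. The read counter, annotation and strand setting were not stated in the labels, so reads of overlapping antisense genes could not be told apart. Libraries were grouped from GEO's labels. Genes were filtered with filterByExpr, leaving 17301 of 55487, scaled by TMM and fitted with edgeR 4.0.16 (robust quasi-likelihood, R 4.3.3) over the 4 groups. Benjamini-Hochberg adjustment ran over all tested genes, with 0.05 as threshold, and SEs were derived from the log2 fold change and F. Rows without a gene symbol held at most 0.0548% of counts. Library totals of 16862953 to 24467873 limit the precision of low genes.

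The members and lists were chosen with earlier results of these data known. Named genes were the 8 members, the 5 genes most correlated with each classical member, and, of each pathway list, those past the threshold or else the 2 with the smallest p; some of these genes and 1 pathway list are not reported here. Likeness was Pearson's r over genes of at least 10 CPM. Exon lengths and positions came from GENCODE M21, promoters from RefSeq. Alternatives included DESeq2 1.42.0, limma-voom (limma 3.58.1), other scalings and filters, a replicate block, libraries left out and a salivary covariate.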

Additional observations from a re-analysis of the deposited data

Results flagged for a closer look

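Socs3 went opposite ways under nerve inhibition with and without a tumour. Every NT NDE library lay above every NT NC library, and every T NDE library lay below every T NC library, a log2 difference between the 2 effects of -1.02 (SE 0.15). Seen the other way, the tumour went with higher Socs3 where nerves were intact and lower Socs3 where they were inhibited, with the same difference of -1.02. The difference was not tested, because the family was chosen on these values. T NDE replicate 3, the lowest of its group at 88.1 CPM, and NT NC replicates 2 and 3 carried salivary gland transcripts, and the difference was -1.24 without these 3 libraries.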

How the results depend on the processing

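No member other than Socs3 passed the threshold in any of 24 alternatives (smallest adjusted p 0.233). Socs3 passed in DESeq2, without the 3 salivary libraries and in some other fits, in contrasts that led to the choice of the family, which adds no support. Of 40 member differences, 27 kept their direction in every alternative. The other 13 were at most 0.13 in size on the log2 scale.

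Without the 3 salivary libraries, T NC against NT NC was -0.21 for Cish, -0.0563 for Socs2 and 0.0136 for Socs4, NT NDE against NT NC was -0.17 for Cish and 0.0428 for Socs4, and T NDE against T NC was -0.0523 for Socs5. The last was also -0.000487 in DESeq2, -0.00871 with no filter, -0.0217 with the Bpifa2 covariate and -0.0506 without the 2 most salivary libraries, an alternative chosen after seeing the data. NT NDE against NT NC was 8.19e-05 for Socs6 in limma-voom and -0.00186 for Socs7 with upper quartile scaling. The cause was not tested.

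With 1 library left out at a time, T NC against NT NC ran from -0.16 to 0.13 for Cish, -0.0612 to 0.0226 for Socs6 and -0.0377 to 0.0887 for Socs7. NT NDE against NT NC ran from -0.11 to 0.21 for Cish, -0.0797 to 0.0857 for Socs2, -0.12 to 0.0113 for Socs4, -0.0418 to 0.0419 for Socs6 and -0.0125 to 0.0291 for Socs7. T NDE against T NC ran from -0.0550 to 0.0533 for Socs5, and T NDE against NT NDE from -0.17 to 0.0201 for Socs1 and -0.0665 to 0.0414 for Socs5.

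In deviations from the group means, same-numbered libraries had r from -0.22 to 0.50 over 18 pairs (median -0.02, 6 above 0.1). Other pairs across groups had r from -0.38 to 0.31 over 36 pairs (median -0.003, 6 above 0.1). The pair at 0.50 was NT NC replicate 3 and T NDE replicate 3, both salivary libraries. The main fit did not use the numbers as pairs, because the labels call the repetitions independent. With a replicate block, Socs3 was 0.68 in T NC against NT NC, 0.78 in NT NDE against NT NC and -1.03 in the interaction.

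Calls over all genes, given for the tumour effect with nerves intact, nerve inhibition with a tumour, nerve inhibition without one, the tumour effect with nerves inhibited and the interaction, were 0, 0, 0, 1 and 0 in edgeR, with 1350, 1008, 1796, 641 and 1230 genes at an unadjusted p under 0.05. They were 46, 48, 135, 24 and 52 in DESeq2 and 0 in each with limma-voom. They were 4, 12, 43, 1 and 1 with no filter, 0, 0, 3, 3 and 1 with the replicate block, and 7, 1, 33, 28 and 3 without the 3 salivary libraries. With the 6 libraries of a contrast alone, NT NDE against NT NC gave 37.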

Other observations

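The genes most like the other classical members over the 12 libraries are given as a description. For Socs1 they were Med25, Trip6, Srf, Rbm38 and Map3k11 (Pearson's r of log2 CPM 0.91, 0.91, 0.89, 0.89 and 0.88). For Socs2 they were Gnb4, Cxcl16, Rnf19a, Slc7a11 and Poglut1, led by Gnb4 at 0.93. For Cish they included Zfp467, Bcat2, Cdc42bpg and Tmem120b, led by Zfp467 at 0.88. For Cish and Socs3 themselves, r of the deviations from the group means was -0.74, with r = -0.21 when the groups were left in. T NDE replicate 3 held the highest Cish (33.5 CPM) and the lowest Socs3 (88.1 CPM) of its group. NT NC replicate 2 held the lowest Cish (15.0 CPM) and the highest Socs3 (84.9 CPM) of its group. Both are salivary libraries, and r without the salivary libraries was not computed. The points share library depth and RNA composition.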
